A study of Cricetiscus sungorus with 16 samples.

Results

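The receptors for the pituitary hormones that act on the ovary, together with the insulin receptor, were followed in ovaries of female Siberian hamsters (given in the labels as Cricetiscus sungorus). They are the receptors for follicle-stimulating hormone (Fshr, NM_013523), luteinizing hormone (Lhcgr, NM_013582), prolactin (Prlr, NM_011169), growth hormone (Ghr, NM_010284) and insulin (Insr, NM_010568). They were chosen by these 5 mouse transcript identifiers, out of 33272 on the array, and were read by 7 of its 41174 probes: 3 for Ghr and 1 for each of the others. Of the 5 receptors, 4 gave a signal that could be tested, and Lhcgr did not.

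Hamsters lived from gestation on in short days (SD, 10 h of light) or long days (LD, 16 h of light) and were 8 or 3 wk old when the ovaries were collected. The groups were SD at 8 wk, LD at 8 wk, SD at 3 wk and LD at 3 wk, with 4 hamsters each, day length as the treatment named in the labels, and RNA from both ovaries of each animal on its own single-colour array. The study asked how day length alters the ovary at each age and how the ovary changes between the ages under each day length. For the 4 SD hamsters at 8 wk the labels conflict, giving 16 h of light in some fields and 10 h in the description, and they are taken here as SD.

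Follicle-stimulating hormone acts on granulosa cells, the somatic cells around the oocyte, where its receptor drives follicle growth and oestrogen synthesis through cyclic AMP. Luteinizing hormone acts through the related receptor on theca cells, on granulosa cells of late follicles and on luteal cells, and triggers ovulation. Prolactin and growth hormone act through cytokine receptors that signal by JAK2 and STAT5. In rodents prolactin sustains the corpus luteum, while in the Siberian hamster day length also sets the release of prolactin itself, which is low in short days. Insulin and its receptor, a tyrosine kinase, bear on the metabolism of all ovarian cells.

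Levels are log2 of a probe's intensity over the 75th percentile of intensity on its array, so that a difference of 1 is 2-fold, and each probe is set only against itself. The array is a mouse design, and no test was made of whether hamster RNA of the same gene gave each signal. Each of 4 slides carried 1 array of every group at a fixed place, so this place and the group cannot be told apart. On slide 1 the 75th percentile of intensity was 269 to 370, against 736 to 1007.5 on slides 2 to 4, and differences within each slide are therefore given beside the pooled ones. Replicates 1 to 4 of a group are its arrays on slides 1 to 4. The files pair no symbols with identifiers, so markers of ovarian cell types and other genes of these pathways could not be matched. In whole ovaries, fewer cells of a type and less RNA per cell cannot be told apart.

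Fshr was lower at 8 wk than at 3 wk under both day lengths, and Prlr was higher. Ghr was higher at 8 wk in SD, and its change in LD, positive on 4 of 4 slides, did not pass. The calls of Ghr in SD and of Fshr in LD were lost in some fits with single arrays left out. Insr did not pass the test in any comparison. Of the 4 receptors tested, 3 changed between the ages in SD and 2 in LD, while none passed the test of SD against LD at 8 or 3 wk. None passed the test of the difference between the 2 age changes either, which called 0.0596% of identifiers. In limma over 20143 identifiers at an adjusted p under 0.05, 9.17% of all identifiers changed with age in SD and 3.02% in LD, 0.958% differed between SD and LD at 8 wk and 0.0% at 3 wk. With slide as a block in the fit these shares were 22.6%, 11.4%, 2.55% and 0.0%, and the same 3, 2, 0 and 0 receptors passed. At an unadjusted p under 0.05 the comparison at 3 wk held 328 identifiers (1.63%), or 1252 (6.22%) with the block. The median age change of the 4 receptors was 0.64 in SD and 0.45 in LD, beside 0.00 and −0.04 over all identifiers. The single changes ran from −1.36 to 2.37 in SD and from −1.08 to 1.72 in LD, so the medians give no shared direction. All 4 receptors were well above background on 16 of 16 arrays, so none entered the test through one group alone.

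**Figure D1:**
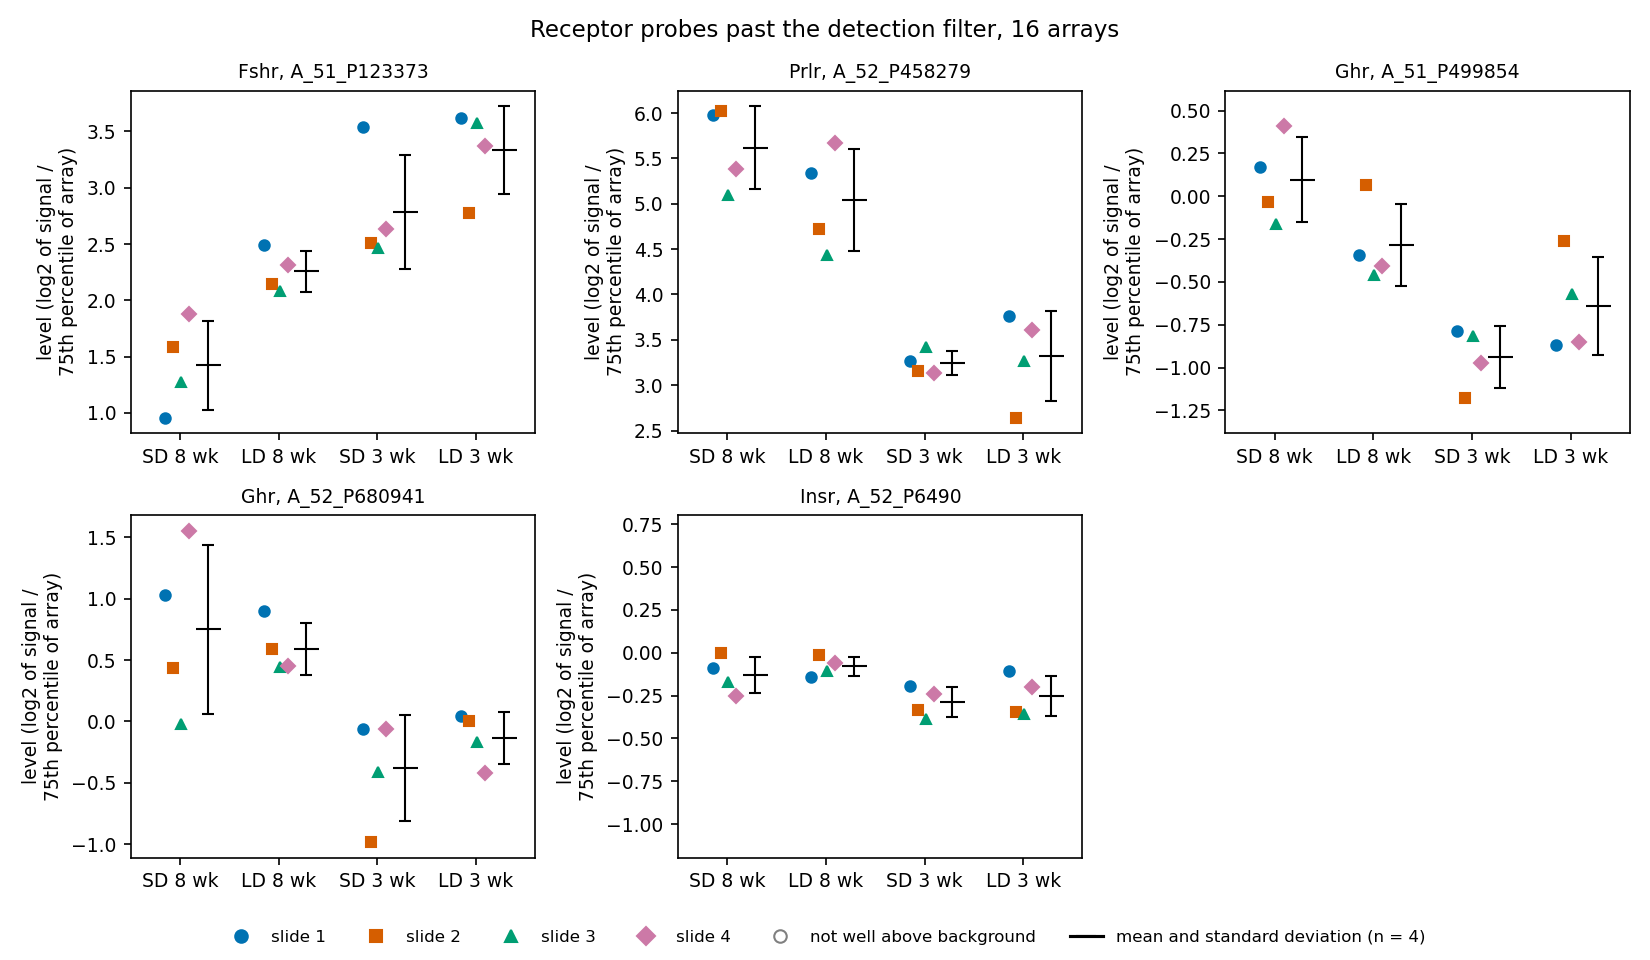
Levels (log2 of intensity over the array's 75th percentile) of the 5 receptor probes that passed the detection filter, with 1 point per hamster, the colour and shape giving the slide, and the mean with its standard deviation (n = 4) beside each group. Fshr is lowest in SD at 8 wk (0.96 to 1.88), Prlr is 4.43 or higher on every 8-wk array and 3.76 or lower on every 3-wk array, and Insr stays between −0.39 and −0.0032.

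Of the gonadotropin receptors, Fshr was well above background in every ovary, with intensities of 709 to 9780. In SD ovaries at 8 wk its levels were 0.96, 1.59, 1.27 and 1.88 in replicates 1 to 4. In LD ovaries at 8 wk they were 2.49, 2.15, 2.08 and 2.32. All 4 SD levels at 8 wk lay below all 4 LD levels. In SD ovaries at 3 wk the levels were 3.54, 2.51, 2.46 and 2.63. In LD ovaries at 3 wk they were 3.62, 2.77, 3.58 and 3.37. At each day length every 8-wk ovary lay below every 3-wk ovary, although in LD the gap was as small as the step between 2.49 and 2.77.

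Fshr averaged 1.42 ± 0.40 at 8 wk in SD, against 2.78 ± 0.51 at 3 wk (standard deviation, n = 4 each). It fell 2.57-fold with age in SD (95% interval 1.76 to 3.74), a log2 change of −1.36 (SE 0.26, limma adjusted p = 0.0031, and 0.0017 with slide as a block). In LD it averaged 2.26 ± 0.18 at 8 wk and 3.34 ± 0.39 at 3 wk (standard deviation, n = 4 each). There it fell 2.11-fold (1.45 to 3.08), a log2 change of −1.08 (SE 0.26, limma adjusted p = 0.030, and 0.014 with slide as a block). Both falls passed the test, and both were also seen within each slide, where the differences ran from −2.58 to −0.75 in SD and from −1.50 to −0.63 in LD. Leaving out slide 1 gave −0.95 in SD (limma adjusted p = 0.0085) and −1.06 in LD (0.012), and over 26 alternatives the adjusted p in SD ran from 0.0013 to 0.015. The fall in LD no longer passed without any 1 of replicates 1, 3 or 4 at 3 wk or replicates 2, 3 or 4 at 8 wk, at changes of −1.10 to −0.98 (limma adjusted p = 0.073 to 0.091, with 0.012 to 0.091 over 26 alternatives).

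The difference between the 2 falls did not pass its own test: the SD change minus the LD change was −0.28 (95% interval −1.05 to 0.49, limma adjusted p = 1.0, and 0.82 with slide as a block). This test called 0.0596% of identifiers, or 0.174% with the block. The difference was −1.45 on slide 1, −0.29 on slide 2 and 0.31 on each of slides 3 and 4, and without slide 1 it turned to 0.11.

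Between day lengths, Fshr was nominally lower in SD at both ages. At 8 wk the SD ovaries were 1.78-fold lower than the LD ovaries (95% interval 1.22 to 2.60), a log2 difference of −0.83 (SE 0.26), which did not pass (limma adjusted p = 0.21, and 0.10 with slide as a block). The 4 within-slide differences at 8 wk were −1.53, −0.56, −0.81 and −0.44. Fshr was the single receptor whose SD and LD groups did not overlap at 8 wk, as was so for 3.95% of 18648 identifiers measured on all arrays. At 3 wk the difference was −0.55 (−1.10 to −0.01, limma adjusted p = 1.0), with within-slide differences of −0.08, −0.27, −1.12 and −0.74. No receptor had separate SD and LD groups at 3 wk, where 1.46% of identifiers did. The order of the group means was LD at 3 wk, SD at 3 wk, LD at 8 wk and SD at 8 wk. Neighbours at the upper end of this order overlapped: LD at 3 wk with SD at 3 wk, and SD at 3 wk, whose lowest level was 2.46, with LD at 8 wk, whose highest was 2.49.

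**Figure D2:**
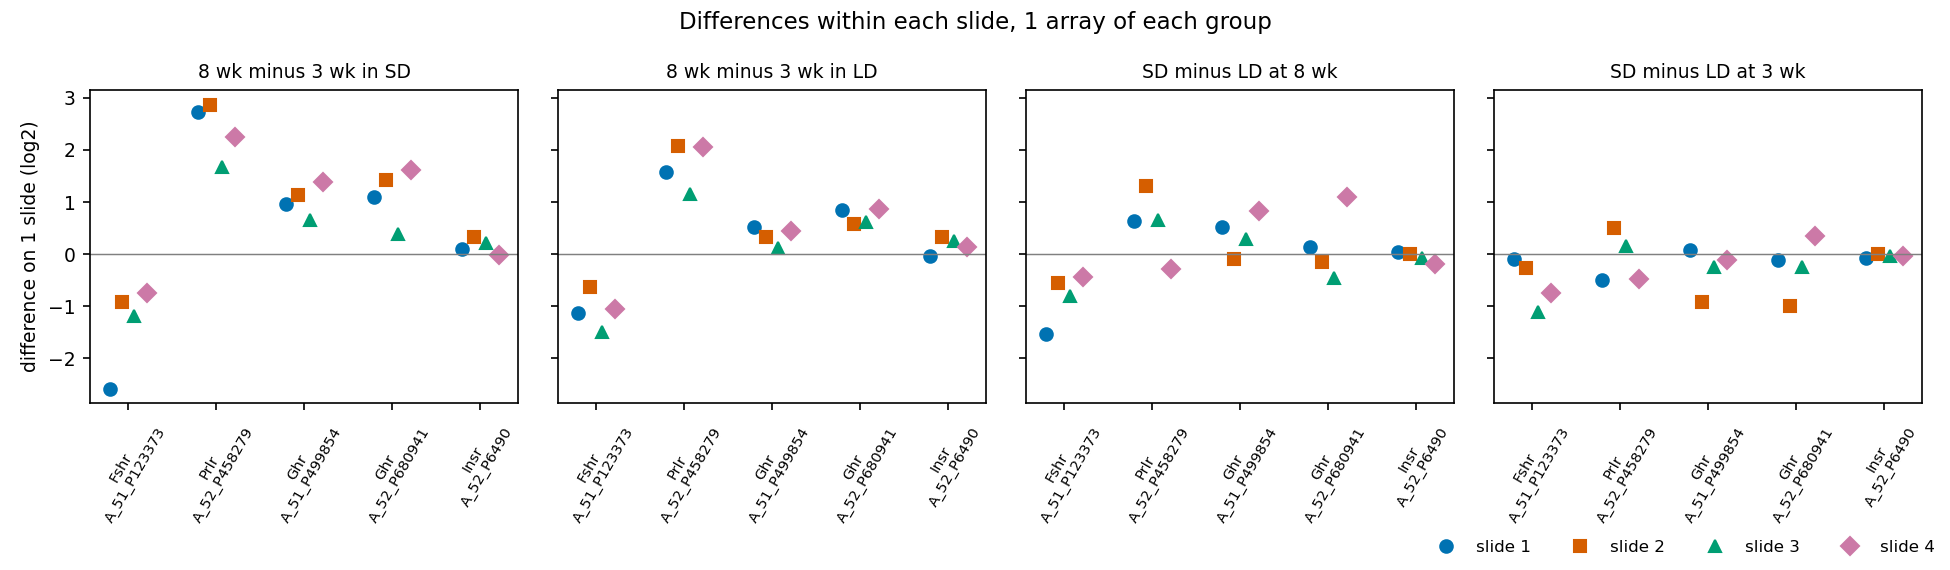
Differences in level (log2) within each of the 4 slides for 8 wk minus 3 wk in SD and in LD and for SD minus LD at 8 and at 3 wk, with 1 point per slide. Fshr is below 0 in all 4 panels on every slide, Prlr is at 1.16 or higher on every slide in both age panels, and at 3 wk every receptor except Fshr has slides on both sides of 0.

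Lhcgr, the other gonadotropin receptor, was not measured by its probe. Its signal was well above background on 0 of 16 arrays. Intensities were 3.12, 2.05, 6.07 and 6.82 in SD and 2.59, 1.67, 5.22 and 3.44 in LD at 8 wk. At 3 wk they were 2.28, 3.04, 5.26 and 3.17 in SD and 2.73, 2.25, 5.48 and 4.995 in LD. On every array this was 2.11 to 2.30 (log2) below the weakest signal that was well above background there. Levels followed the slide, which held 78.4% of their variance, while the group held 4.09%. Whether this mouse probe pairs with the hamster transcript was not tested, and no level or change of Lhcgr can be given.

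**Figure D3:**
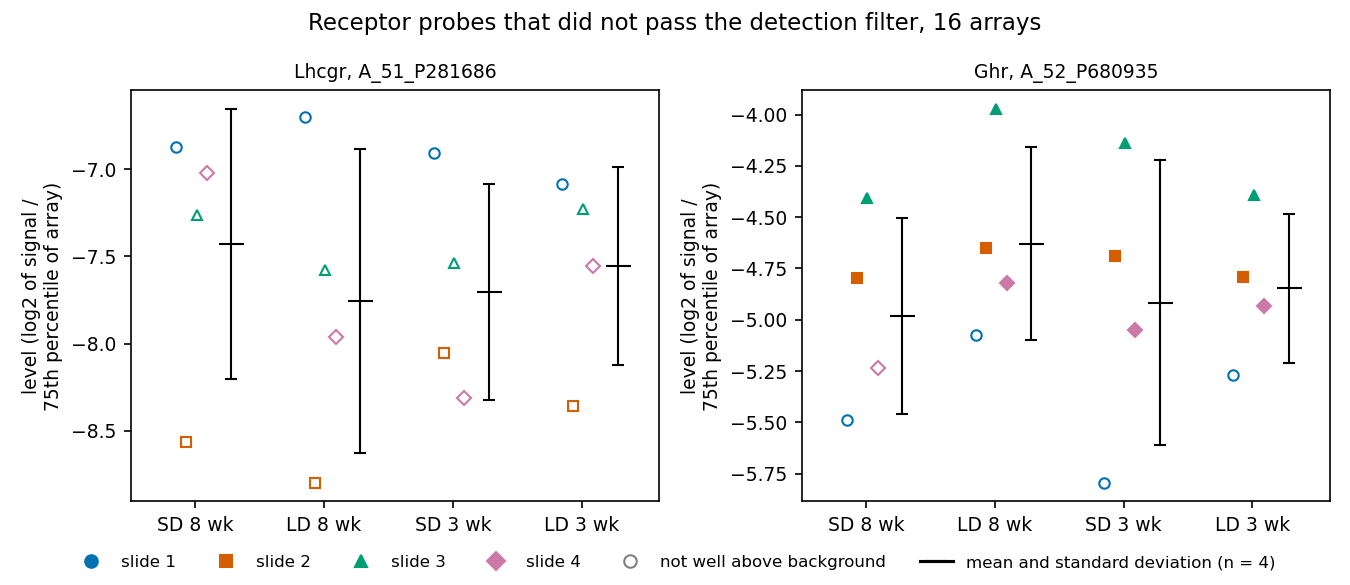
Levels (log2 of intensity over the array's 75th percentile) of the 2 receptor probes that did not pass the detection filter, with 1 point per hamster, the shape giving the slide, open points for signals not well above background, and the mean with its standard deviation (n = 4). All 16 points of Lhcgr are open, and the points of both probes sort by slide more than by group.

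Prlr, with intensities of 2626 to 50320, changed most with age of the receptors tested. Its levels in SD ovaries at 8 wk were 5.98, 6.02, 5.09 and 5.38. In LD ovaries at 8 wk they were 5.34, 4.72, 4.43 and 5.66. The SD and LD ovaries overlapped at 8 wk. At 3 wk the SD ovaries had 3.27, 3.15, 3.42 and 3.13. The LD ovaries at 3 wk had 3.76, 2.64, 3.27 and 3.61, so that the 4 SD levels lay inside the LD range. Every 8-wk ovary of either day length lay above every 3-wk ovary.

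Prlr averaged 5.62 ± 0.46 at 8 wk in SD, against 3.24 ± 0.13 at 3 wk (standard deviation, n = 4 each). It rose 5.18-fold with age in SD (95% interval 3.38 to 7.95), a log2 change of 2.37 (SE 0.29, limma adjusted p = 0.00012, and 7.2e-05 with slide as a block). This was the 59th largest rise of 20143 identifiers. In LD it averaged 5.04 ± 0.56 at 8 wk and 3.32 ± 0.50 at 3 wk (standard deviation, n = 4 each). The rise in LD was 3.29-fold (2.15 to 5.04), a log2 change of 1.72 (SE 0.29, limma adjusted p = 0.0055, and 0.0018 with slide as a block), and ranked 41st. Within slides the rise was 2.72, 2.87, 1.67 and 2.24 in SD and 1.58, 2.08, 1.16 and 2.05 in LD. Slide 3 had the smallest rise under both day lengths. Without slide 1 the rises were 2.26 in SD and 1.76 in LD. Both rises passed in all 26 alternatives, with limma adjusted p of 4.3e-05 to 0.0027 in SD and 0.0018 to 0.037 in LD.

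The rise of Prlr was larger in SD on 4 of 4 slides, by 1.14, 0.79, 0.51 and 0.19, but this difference of 0.66 did not pass the test (95% interval −0.21 to 1.53, limma adjusted p = 1.0, and 0.65 with slide as a block). At 8 wk Prlr was 0.58 higher in SD than in LD (−0.04 to 1.19, limma adjusted p = 0.80, and 0.34 with the block). The SD ovary was the higher one on slides 1, 2 and 3, by 0.64, 1.30 and 0.66, and the lower one on slide 4, with a difference of −0.29. At 3 wk the difference was −0.08 (−0.69 to 0.54, limma adjusted p = 1.0), with 2 slides in each direction. These intervals leave room at 8 wk for a level up to 2.29-fold higher in SD, and at 3 wk for one up to 1.62-fold lower. The order of the means was SD at 8 wk, LD at 8 wk, LD at 3 wk and SD at 3 wk, and only the step between the ages separated neighbours.

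**Figure D4:**
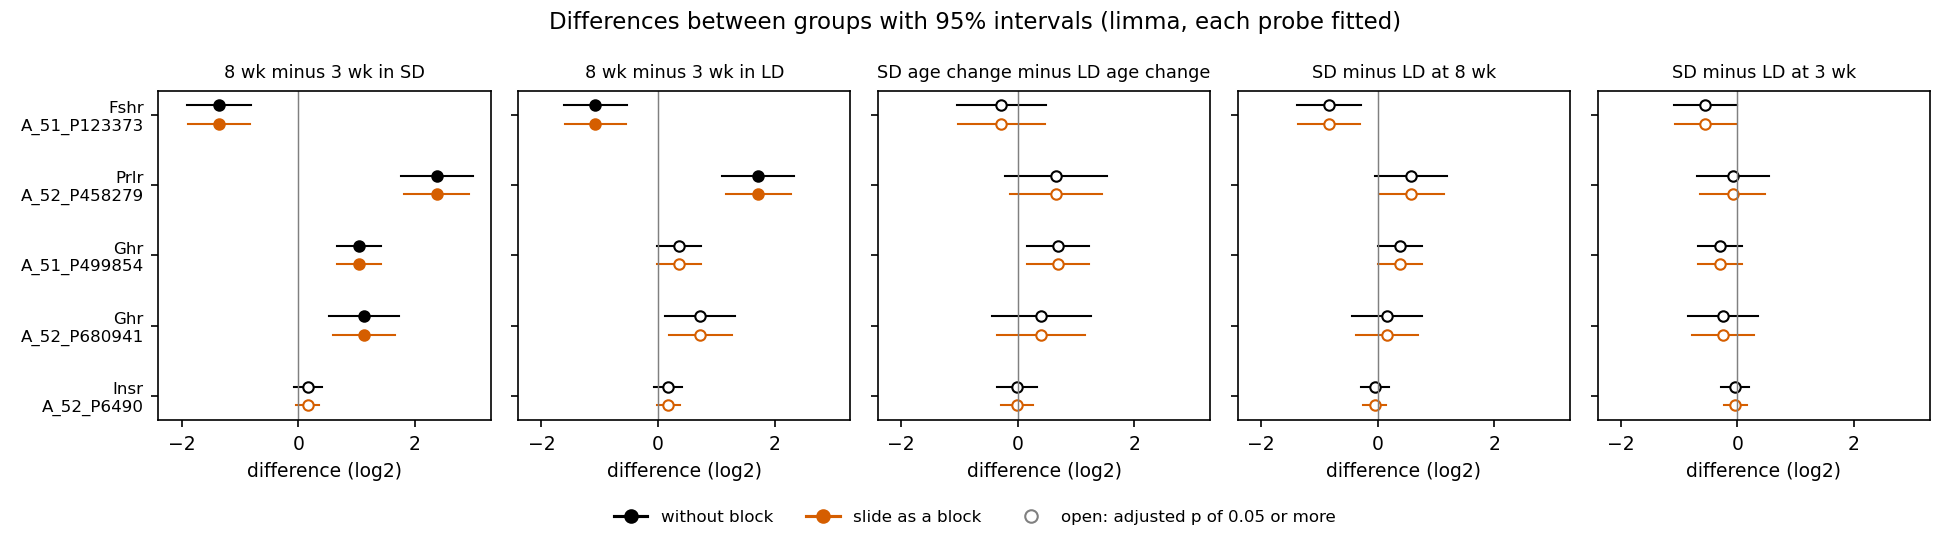
Differences between groups (log2) with their 95% intervals from limma, fitted probe by probe, without a block (black) and with slide as a block (orange), and with filled points for an adjusted p under 0.05. Fshr lies left of 0 and Prlr right of 0 in both age panels with filled points, both Ghr probes have filled points in SD only, and no point is filled in the 3 panels on the right.

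Ghr was read by 3 probes, of which A_52_P680941 was the brightest and stood for the gene. On that probe the SD ovaries at 8 wk had levels of 1.03, 0.44, −0.02 and 1.55, a wide spread in which replicates 1 and 4 were high. The LD ovaries at 8 wk had 0.90, 0.59, 0.44 and 0.45. At 3 wk the SD ovaries had −0.07, −0.98, −0.41 and −0.06. Those of LD at 3 wk had 0.05, 0.01, −0.17 and −0.42. Ages did not overlap under either day length, but in SD the closest pair was −0.02 at 8 wk and −0.06 at 3 wk. Day lengths overlapped at both ages.

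On this probe Ghr averaged 0.75 ± 0.69 at 8 wk and −0.38 ± 0.43 at 3 wk in SD (standard deviation, n = 4 each). It rose 2.19-fold (95% interval 1.45 to 3.31), a log2 change of 1.13 (SE 0.28, limma adjusted p = 0.019, and 0.0059 with slide as a block). In LD it averaged 0.59 ± 0.21 at 8 wk and −0.13 ± 0.21 at 3 wk (standard deviation, n = 4 each). The change in LD was 0.73 (0.13 to 1.32, limma adjusted p = 0.23, and 0.080 with slide as a block) and did not pass. All 4 slides had a positive change in both day lengths, of 0.39 to 1.62 in SD and 0.58 to 0.87 in LD. Without slide 1 the change in SD was 1.14 (limma adjusted p = 0.043). The call in SD was lost without replicate 2 at 3 wk (change 0.93, limma adjusted p = 0.073) and without replicate 1 (1.04, 0.051) or 4 (0.86, 0.056) at 8 wk. It was also lost when the 8 SD arrays were fitted alone (limma adjusted p = 0.072, with 0.0049 to 0.073 over the 26 alternatives on this probe).

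The second Ghr probe, A_51_P499854, was well above background on all 16 arrays too and was fitted beside the first. Its levels were 0.17, −0.03, −0.16 and 0.41 in SD and −0.34, 0.06, −0.46 and −0.41 in LD at 8 wk. At 3 wk they were −0.79, −1.18, −0.82 and −0.97 in SD and −0.87, −0.26, −0.57 and −0.85 in LD. The SD ages were well apart on this probe, while the LD ages overlapped. It rose 2.05-fold in SD (95% interval 1.58 to 2.66), a log2 change of 1.04 (SE 0.18, limma adjusted p = 0.0016). In LD the change was 0.35 (−0.02 to 0.73, limma adjusted p = 0.42), against 0.73 on the first probe.

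On both probes the change with age was the larger one in SD, by 0.68 on A_51_P499854 (95% interval 0.15 to 1.21) and by 0.40 on A_52_P680941 (−0.44 to 1.25). Neither difference passed (limma adjusted p = 1.0 for each, and 0.47 and 0.75 with slide as a block). On A_51_P499854 it was positive on all 4 slides (0.43 to 0.94), and on A_52_P680941 on 3 of 4. Between day lengths at 8 wk the probes gave 0.38 (0.01 to 0.76, limma adjusted p = 0.69) and 0.16 (−0.44 to 0.75, limma adjusted p = 1.0). The second of these values, on A_52_P680941, rested on SD replicate 4: without it the difference was −0.11, and within slides it ran from −0.46 to 1.102, with 2 slides in each direction. At 3 wk the probes gave −0.30 (−0.67 to 0.08) and −0.25 (−0.85 to 0.35), with a limma adjusted p of 1.0 for both.

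The third Ghr probe, A_52_P680935, read near background, with intensities of 4.92 to 63.4. It was well above background on 11 of 16 arrays, on none of slide 1, and did not pass the filter. Its levels ran from −5.49 to −4.41 in SD and from −5.07 to −3.97 in LD at 8 wk, and from −5.79 to −4.14 in SD and from −5.27 to −4.39 in LD at 3 wk. These pooled ranges overlapped throughout. Within slides, 8 wk minus 3 wk was −0.27 to 0.31 in SD, negative on 3 of 4 slides, and 0.11 to 0.42 in LD, positive on 4 of 4. SD minus LD was −0.43 to −0.15 at 8 wk, negative on 4 of 4 slides, and −0.53 to 0.26 at 3 wk. The slide held 84.8% of the variance of this probe and the group 8.07%, whereas on A_51_P499854 the slide held 1.55% and the group 77.5%. On slides 2, 3 and 4 its change with age in SD was −0.11, −0.27 and −0.19, where the other probes of Ghr rose. All 11 arrays on which this probe was well above background lay on these slides, though its signal there was close to background. Why the probes differ was not tested.

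Insr varied least. Its levels were −0.09, −0.0032, −0.17 and −0.25 in SD and −0.14, −0.01, −0.10 and −0.06 in LD at 8 wk. At 3 wk they were −0.19, −0.33, −0.39 and −0.24 in SD and −0.11, −0.34, −0.36 and −0.20 in LD. Neighbouring groups overlapped. The change with age was 0.16 in SD (95% interval −0.08 to 0.40, limma adjusted p = 0.51) and 0.17 in LD (−0.07 to 0.41, limma adjusted p = 0.60). The SD minus LD difference was −0.05 at 8 wk (−0.29 to 0.19, limma adjusted p = 1.0) and −0.04 at 3 wk (−0.28 to 0.20, limma adjusted p = 1.0). In each of these 4 comparisons the interval stayed within 1.33-fold in either direction.

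**Figure D5:**
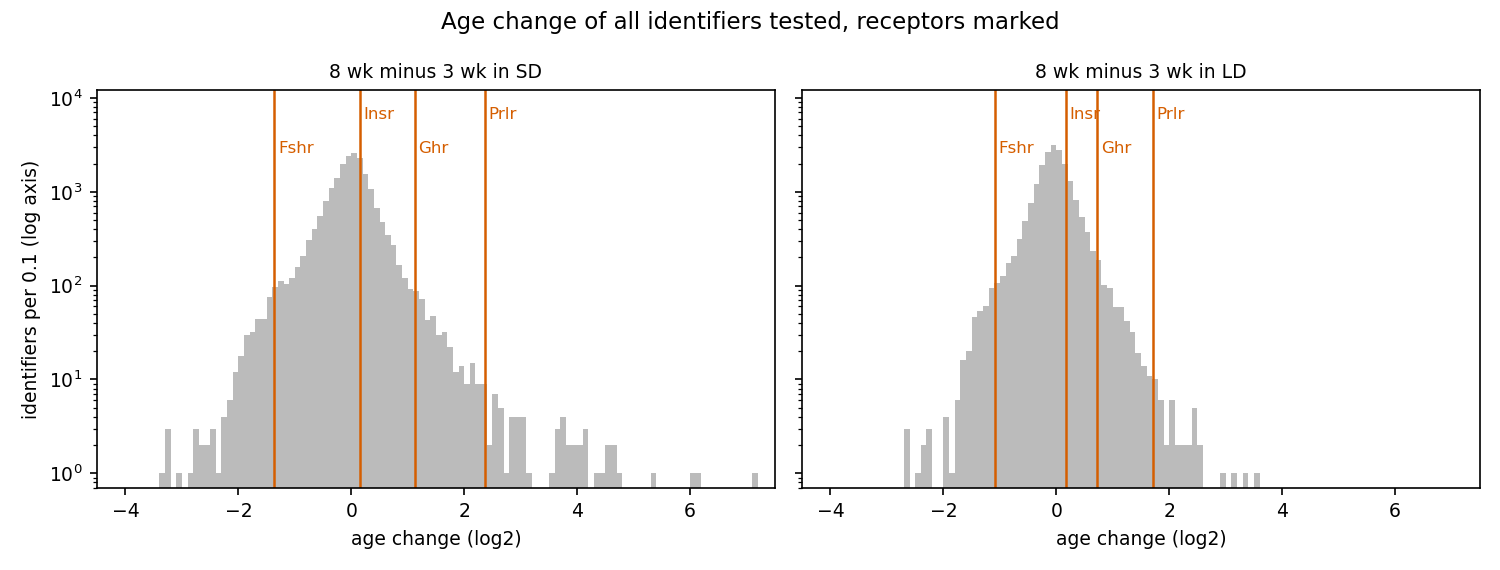
Change with age (8 wk minus 3 wk, log2) of all 20143 identifiers tested, in bins of 0.1 with a logarithmic count axis, in SD (left) and LD (right), with lines at the 4 receptors. Prlr lies in the upper tail (2.37 in SD and 1.72 in LD) and Fshr in the lower tail (−1.36 and −1.08), while Insr (0.16 and 0.17) lies near the peak.

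Set among all identifiers, the fall of Fshr was the 319th largest in SD and the 334th in LD. The positive change of Ghr on A_52_P680941 was the 433rd largest in SD and the 597th in LD, where it did not pass the test. Of the 4 receptors tested, 3 had separate age groups in SD, where 15.2% of identifiers did. The same count was reached in LD, where 8.04% did: Fshr, Prlr and Ghr, the last without passing the test. The group held 88.0% of the variance of Prlr levels and the slide 3.89%, and for Fshr these shares were 81.5% and 4.10%. For Insr they were 52.1% and 13.8%, and for Ghr on A_52_P680941 they were 61.7% and 13.8%.

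Patterns were compared with those of 18647 other identifiers over the 16 arrays, after the mean of each slide was taken out, as a description of arrays that share slides and groups. A correlation of 0.9 or more was found with 115 identifiers for Fshr, 117 for Prlr, 40 for Ghr and 11 for Insr, and one of −0.9 or less with 59, 311, 50 and 6. Prlr thus had more identifiers that ran opposite to it than with it. The identifier most like Fshr was AY861425 (r = 0.962), which has no symbol in the files. Its levels were −3.43 to −3.22 in SD and −3.17 to −2.59 in LD at 8 wk, and −2.86 to −2.14 in SD and −2.55 to −2.22 in LD at 3 wk. It fell with age in SD, by 0.65 on the log2 scale (limma adjusted p = 0.036), and its change in LD was −0.57 (limma adjusted p = 0.12). This identifier was chosen for its likeness to Fshr on these same arrays, group differences included. Its values therefore describe it and are no separate test.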

How the data were processed

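Ovarian RNA of single hamsters was amplified and labelled with Cy3 for 1-colour mouse arrays, per the labels' protocols. Per the file headers, the authors extracted spots with Agilent Feature Extraction 10.5.1.1, and the deposited processed intensity is background-corrected, linear and not normalized between arrays. The deposited value table holds the same intensities and was an alternative. Control and outlier spots were left out (45018 spots, 43379 without controls), no spot was saturated, and spots of a probe were averaged. Levels are log2 intensity minus log2 of the array's 75th percentile. Between 58.0% and 75.7% of probes were well above background per array. The filter asked for signal well above background throughout 1 or more groups and for values from 12 or more arrays, 2 or more in every group and on every slide. Identifiers with several such probes were represented by the brightest.

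The 16 arrays were fitted together with limma 3.58.1 in R 4.3.3 (lmFit, eBayes with an intensity trend), with Benjamini-Hochberg adjustment over 20143 identifiers at 0.05. The fit was also run on simulated data with known changes and no slide effects. That run therefore does not cover the slide differences of the real arrays. Slide was left out of the fit and used as a fixed block beside it. The fits without single arrays were made without the block. Each sample has its own animal code in the labels, and replicate numbers follow accession order, which matches slide numbers. SD at 8 wk was grouped by its description. All receptors and all their probes are named. The most similar identifier is named for Fshr, and for Lhcgr none could be. Gene names come with the choice of identifiers, since the files give none, and fixed pathway and cell type lists could not be matched. Probe sequences and positions were not used here. Members and lists were chosen with earlier results of these data known. The number of arrays limits the precision. Alternatives changed the block, filter, background correction, scaling, probe choice, arrays fitted, outlier spots and source table, or left out arrays or slide 1. Leaving out slide 1 with the block kept, and the block in the fit of every probe, were chosen after seeing the data.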

Additional observations from a re-analysis of the deposited data

Results flagged for a closer look

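In SD ovaries at 3 wk, Fshr stood at 3.54 in replicate 1, against 2.46 to 2.63 in the other 3 hamsters, a gap large for the range of the group by Dixon's test. This was 1 of 28 groups tested, and chance flags about 1 in 20. The array lies on slide 1, the dim slide, where the LD ovaries had 3.62 at 3 wk and 2.49 at 8 wk, each the highest of its group. The SD ovary at 8 wk on this slide had 0.96, the lowest Fshr level of all. Slide held 4.10% of the variance of Fshr levels. Without SD replicate 1 at 3 wk the change of Fshr with age in SD was −1.11 (limma adjusted p = 0.0081), and the SD minus LD difference at 3 wk was −0.80 (limma adjusted p = 1.0). The part of slide 1 in the level of 3.54 was not tested.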

How the results depend on the processing

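Over 20 receptor results and 521 alternative values, 495 kept their direction and their side of the threshold, 10 lost a call, 0 gained one and 16 turned sign. Many of these values could not turn sign. Leaving out an array of a group outside the comparison kept the estimate, as did the block, and could alter only the adjusted p. Both age changes of Prlr and the fall of Fshr in SD kept their calls in all alternatives. Without single arrays, the change of Ghr in SD ranged from 0.86 to 1.39 and lost its call in 3 of 16 fits, and that of Fshr in LD from −1.26 to −0.98, losing it in 6 of 16. All these losses came from leaving out an array among the 8 of the day length compared. Fitted on the 8 SD arrays alone, the change of Ghr kept its size of 1.13 and lost its call. No result that turned sign passed a test. With all 16 arrays their estimates included −0.28 for the difference of age changes of Fshr and 0.16 for SD minus LD of Ghr at 8 wk. Without slide 1, with or without the block, the SD minus LD difference of Prlr at 3 wk turned to 0.062. The difference of age changes of Fshr turned to 0.11 in the same fits. With normexp the SD minus LD difference of Insr at 3 wk turned to 0.028. Without single arrays, the SD minus LD difference ranged from −0.11 to 0.41 for Ghr at 8 wk, from −0.30 to 0.069 for Prlr at 3 wk and from −0.071 to 0.011 for Insr at 3 wk, and the difference of age changes of Insr from −0.060 to 0.028. The causes were not tested.

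Counts of all identifiers called moved more. With slide as a block they were 513 for SD against LD at 8 wk, 4556 for the SD age change, 2304 for the LD age change and 35 for the difference of age changes, against 193, 1847, 609 and 12 without it. The block without slide 1 gave 316, 4498, 2113 and 7. Without slide 1 and with no block the age changes called 2833 in SD and 1212 in LD, and their difference 4. With only the arrays of the groups compared, 84 were called at 8 wk and 229 for the LD age change, and keeping outlier spots gave 936 for the LD age change. Without single arrays the counts ranged from 116 to 246 at 8 wk, 0 to 1 at 3 wk, 1160 to 2216 for the SD age change, 232 to 670 for the LD age change and 5 to 48 for the difference. The fit with only the arrays of the groups compared was not run for the difference of age changes, which uses all arrays. Signal over background limits Lhcgr and the third Ghr probe, which did not pass the filter and are given without a test.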
